A study of Mus musculus with 16 samples.

Results

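Mouse embryonic fibroblasts in which Atf5 had been knocked down were compared with control fibroblasts, both without proteasome inhibitor. The comparison uses 8 of the series' 16 microarrays, chosen by their labels: 4 arrays of control cells and 4 of knockdown cells, 1 array per plate. Control cells are wild type and carry a scramble hairpin (shRNA), and knockdown cells stably express an shRNA against Atf5. Both were grown in DMEM and kept for 8 h in DMSO, the vehicle of MG132, a peptide aldehyde that blocks the proteasome. The other 8 arrays hold the same lines after 8 h in 1 µM MG132 on separate plates, and serve here as a second set of plates on which the line difference was measured. The labels give 1 line per genotype and name no separate cultures, and the p-values below therefore reflect the spread over plates, which may be technical. The effect of the hairpin and any other difference between the lines cannot be told apart.

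ATF5 is a transcription factor of the basic leucine zipper (bZIP) class, close to ATF4. Its protein is made when phosphorylation of the initiation factor eIF2 slows general translation, and it takes part in the integrated stress response, in the mitochondrial unfolded protein response and in cell survival. Fibroblasts also keep a memory of their place in the body, in the Hox genes and other patterning factors they express, so lines of different origin can differ in these genes.

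Values are log2 probe set intensities, 1 probe set for each of 19938 genes, and a difference is the mean of the knockdown arrays minus that of the control arrays, so that 1 is a 2-fold change. Errors of group means are SDs over 4 arrays, errors of differences are standard errors from limma, and a gene passed when its limma p, adjusted by Benjamini and Hochberg over all genes, was under 0.05. Arrays of 1 line correlated at r = 0.998 to 0.999 over genes and arrays of different lines at 0.982 to 0.985, and array medians over probe sets lay between 7.71 and 7.77. Over the genes tested the medians were 8.115 to 8.16 in control and 8.18 to 8.24 in knockdown arrays, so each knockdown array lay above each control array. Inside the lines, 45.1% of the variance lay along 1 gradient. Knockdown array 1 (score -0.096), control array 1 (-0.044) and control array 4 (-0.028) stood at its low end, and the other 5 arrays had scores above 0. Leaving out these 3 arrays was tried after seeing the data.

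Atf5 itself read 8.68, 8.51, 8.46 and 8.62 in the control arrays and 8.32, 8.39, 8.28 and 8.41 in the knockdown arrays. The 4 knockdown values lay below the 4 control values, but by little. The difference was -0.22 ± 0.05 (limma adjusted p = 0.00321), a change of -14%, and 74.3% of all genes differed by less (exact permutation test, two-sided, p = 0.0286, its smallest possible value here). Without the 3 arrays at the low end of the gradient it was -0.125 and did not pass (limma adjusted p = 0.157). With MG132 it was -0.31 ± 0.05. The places of the hairpin and of the probe set on the transcript are not stated in the labels.

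The lines differed in far more than Atf5. In limma 7848 of 19938 genes passed, 39.4% of those tested, with 4283 higher (21.5%) and 3565 lower (17.9%) in knockdown cells. Counts in the gene lists below are to be read beside these shares, and beside larger ones for bright lists. Of the 9969 genes with a mean at or above the median of 8.18, called the brighter genes, 34.6% were higher and 28.3% lower. At 2-fold or more 621 of all genes tested passed (3.11%), 390 higher (1.96%) and 231 lower (1.16%). Centring each array on its median moved the median of all genes from -0.01 to -0.08 and turned the split of calls to 3240 higher and 5826 lower. The arrays of the lines did not overlap for 7714 genes, 38.7% of those tested. Most differences were small, with a median size of 0.095 over all genes and a median standard error of 0.05.

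The largest difference of a named gene was that of Cd34, a sialomucin of the surface of progenitor cells and of many fibroblasts. It read 7.59, 7.52, 7.26 and 7.01 in control arrays and 12.64, 12.65, 12.70 and 12.77 in knockdown arrays. The groups stood 5.34 ± 0.10 apart, which is 40.6-fold (limma adjusted p = 1.44e-16). Efemp1, an extracellular matrix protein of the fibulin family, read 6.21, 6.36, 6.34 and 6.38 in control and 10.76, 10.87, 10.88 and 10.97 in knockdown arrays. Gas6, the secreted ligand of the receptor kinases Tyro3, Axl and Mertk, read 7.53, 7.53, 7.39 and 7.64 against 11.73, 11.59, 11.65 and 11.73. In both genes each knockdown array was far above each control array, with differences of 4.55 ± 0.06 and 4.15 ± 0.06.

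The other 12 of the 15 named genes with the largest increases spanned 3.46 to 4.36. They included surface and secreted proteins: the neighbouring membrane genes Tmem176b (4.36 ± 0.07) and Tmem176a (3.96 ± 0.09), the interleukin receptor chain Il13ra1 (4.01 ± 0.08), Eng, a co-receptor of the transforming growth factor β family (3.83 ± 0.08), Tfpi, an inhibitor of coagulation (3.80 ± 0.06), the small proteoglycan Ogn (3.59 ± 0.13), Gpnmb (3.50 ± 0.08) and the adhesion molecule Vcam1 (3.46 ± 0.06). Psca, a lipid-anchored surface protein, stood at 4.31 ± 0.09, and Adh7, an alcohol dehydrogenase, at 3.77 ± 0.07. The last of the 12 were Hoxc8 and Hoxc6, described with their cluster. A row named only by its clone name, AI506816, was left out of the ranking by rule. It had a larger difference than any of these, with means of 5.16 in control and 11.68 in knockdown cells.

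Kcnip1, a calcium-binding partner of voltage-gated potassium channels, had the largest measured decrease among named genes. It read 11.23, 11.06, 11.00 and 11.14 in control arrays and 6.11, 6.15, 5.81 and 6.34 in knockdown arrays, a difference of -5.01 ± 0.10 (limma adjusted p = 1.63e-16). Cldn1, a tight junction protein, followed at -4.96 ± 0.13. It read 11.05, 11.27, 11.02 and 11.16 in control and 6.34, 6.09, 6.12 and 6.13 in knockdown arrays. Lrp2, a large endocytic receptor, read 11.73, 11.65, 11.68 and 11.60 against 7.20, 7.02, 7.21 and 7.10. All 3 genes were bright on every control array and at 7.21 or below on every knockdown array.

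Transcription factors of organ development were among the other large decreases. Pax8, a factor of kidney and thyroid development, read 11.63, 11.76, 11.76 and 11.78 in control and 7.57, 7.69, 7.73 and 7.39 in knockdown arrays (-4.14 ± 0.07). Tbx20, a T-box factor of heart development, differed by -3.96 ± 0.11 and Sim2 by -3.54 ± 0.08. The remaining genes of the 15 were Nrn1, a neurite growth protein (-4.58 ± 0.09), the lysosomal protease Ctsh (-4.03 ± 0.06), the mitochondrial fusion gene Miga1 (-3.89 ± 0.10), Prxl2a (-3.73 ± 0.07), the paternally expressed gene Peg3 (-3.68 ± 0.07), Fez1 (-3.63 ± 0.05), the heparan sulfate sulfatase Sulf1 (-3.44 ± 0.08), the retinoic acid binding protein Crabp1 (-3.43 ± 0.08) and Hoxd8 (-3.42 ± 0.08). In all 30 of these genes the groups did not overlap, which the naming rule required. No detection calls were used. In 4 of the 15 genes with the largest increases (Efemp1, Hoxc6, Psca and Tfpi) and 6 of the 15 with the largest decreases (Kcnip1, Cldn1, Nrn1, Tbx20, Miga1 and Hoxd8) the mean of the dimmer line lay below 6.71, the 25th percentile of gene means. The dimmer means of Ctsh (6.76), Il13ra1 (6.79) and Peg3 (6.81) lay just above that level. Signal above background is not shown for the dimmer line of any of the 30 genes, and such a difference is one of probe set signal.

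**Figure D1:**
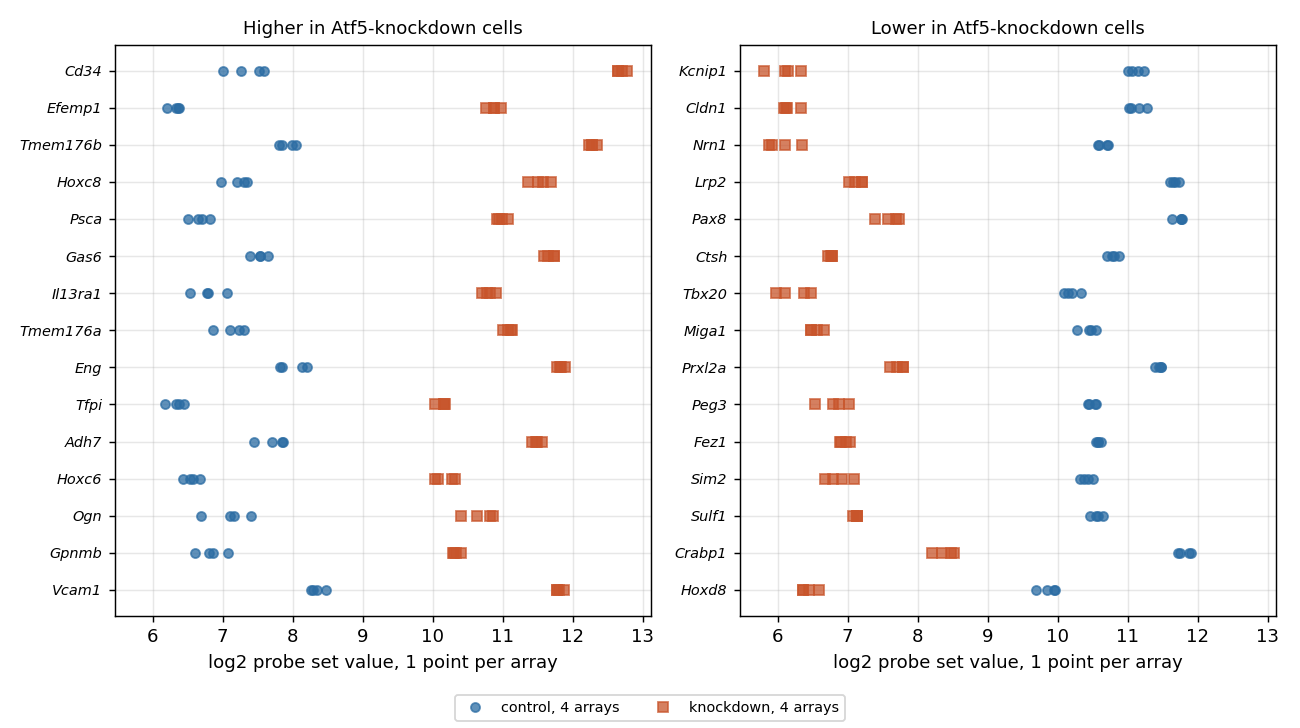
Log2 probe set values of the 15 named genes with the largest increases (left) and the 15 with the largest decreases (right), 1 point per array, circles for the 4 control and squares for the 4 knockdown arrays. Cd34 lies between 7.01 and 7.59 in control and between 12.64 and 12.77 in knockdown arrays, and in each gene a wide gap separates the groups.

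Hox genes, which encode the position of a cell along the body axis, differed by cluster. Of 37 tested, 21 were higher and 6 lower in knockdown cells, with a median difference of 0.33 against -0.01 for all genes. All 9 measured genes of the HoxC cluster on chromosome 15 were higher, by 1.17 to 4.33 (median 2.51). Hoxc8 read 7.30, 6.97, 7.21 and 7.34 in control and 11.36, 11.50, 11.69 and 11.58 in knockdown arrays (4.33 ± 0.11). Hoxc9 read 7.53, 7.23, 7.41 and 7.42 against 10.13, 10.37, 10.37 and 10.39 (2.92 ± 0.07). Control cells thus sat low and close together for both genes, and knockdown cells at high values.

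The HoxD cluster on chromosome 2 went the other way in its few genes that passed: 3 of 9 were lower and 0 higher. Hoxd8 read 9.69, 9.94, 9.96 and 9.84 in control and 6.36, 6.36, 6.59 and 6.45 in knockdown arrays. Hoxd9 differed by -1.20 ± 0.07 and Hoxd4 by -0.45. In the HoxA cluster on chromosome 6, 8 of 10 genes were higher, up to Hoxa10 at 1.17 ± 0.10. The HoxB cluster on chromosome 11 was mixed, with 4 higher and 3 lower of 9. There Hoxb13, the gene at the posterior end, was the largest at 1.51 ± 0.07.

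**Figure D2:**
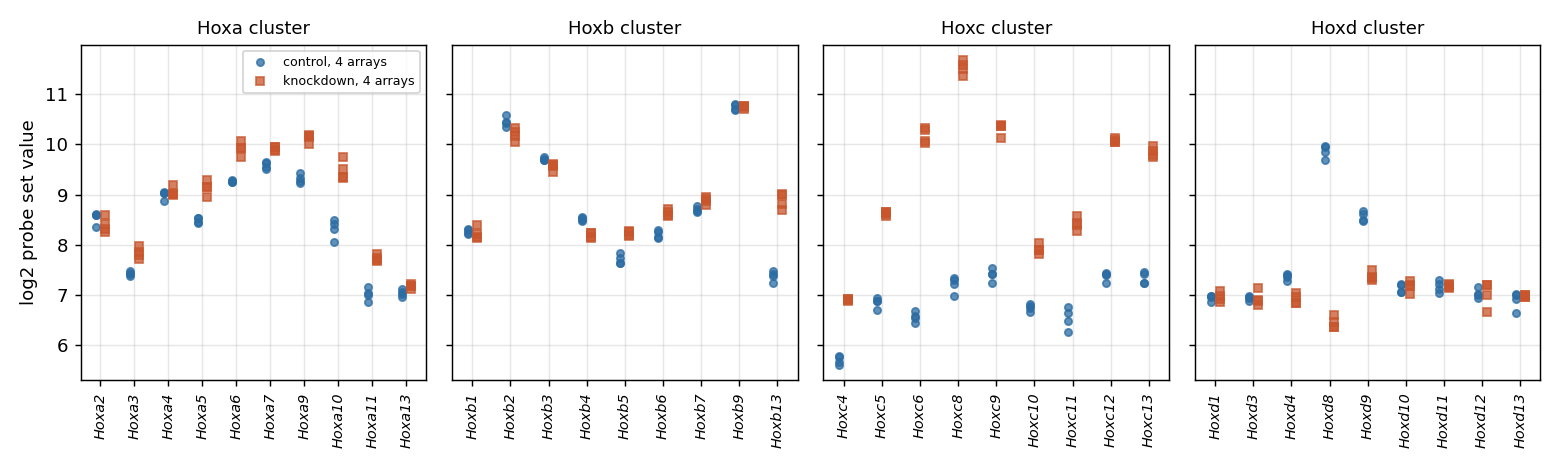
Log2 probe set values of the 37 Hox genes tested, by cluster, 1 point per array, circles for the 4 control and squares for the 4 knockdown arrays. The 9 HoxC genes are higher in every knockdown array, Hoxd8 and Hoxd9 are lower, and most HoxA genes are moderately higher.

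Other patterning factors of mesenchyme differed in both directions. Of 61 tested, 24 were higher and 18 lower, with a median of 0.01 that turned negative with median centring (-0.05) and without the 3 arrays (-0.003). Zic1, a zinc finger factor of neural and somite development, read 9.98, 10.14, 10.12 and 10.05 in control and 7.25, 6.80, 7.05 and 6.90 in knockdown arrays (-3.07 ± 0.07). Pax3, a factor of somites and neural crest, went up from 7.52, 7.53, 7.48 and 7.39 to 9.30, 9.36, 9.38 and 9.51 (1.91 ± 0.05). Gata6 differed by -1.43 ± 0.03 while its relative Gata4 differed by 1.58. Pax9 (-2.17) and Tbx15 (-1.46) were lower, and Eya1 (1.73), Shox2 (1.66), En1 (1.65) and Alx4 (1.56) were higher.

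Among the bZIP factors themselves 13 of 29 were higher and 7 lower (median 0.10). The largest was Creb3l1, a membrane-bound factor that controls secretory and collagen genes. It read 8.29, 8.54, 8.44 and 8.41 in control and 10.03, 10.16, 10.10 and 10.23 in knockdown arrays (1.71 ± 0.06). Atf4, the close relative of Atf5, read 11.15, 11.16, 11.14 and 11.14 against 11.41, 11.35, 11.40 and 11.36, a small difference of 0.23 ± 0.03 with no overlap. Ddit3, which encodes the stress factor CHOP, was higher by 0.72 ± 0.04 (limma adjusted p = 1.20e-10). Creb5 (-0.65 ± 0.04) and Atf3 (-0.23 ± 0.04) were lower.

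The effectors of ATF4 and CHOP stood mostly above control. Of 16 tested, 12 were higher and 1 was lower (2 without control array 3, and 2 with median centring or a second quantile normalization), with a median of 0.50. Nupr1, a small chromatin protein induced by stress, read 10.91, 10.98, 10.97 and 10.91 in control and 12.19, 12.22, 12.24 and 12.23 in knockdown arrays (1.28 ± 0.03). Chac1, an enzyme that degrades glutathione, read 10.41, 10.46, 10.40 and 10.47 against 11.24, 11.26, 11.23 and 11.23 (0.81 ± 0.04). Vldlr was higher by 1.17 ± 0.07, Trib3 by 0.65 ± 0.04 and Herpud1 by 0.47 ± 0.04. The 12 genes that were higher with vehicle also passed in the same direction on the MG132 plates.

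Genes of amino acid synthesis and transport were higher in 11 and lower in 5 of 19 (median 0.13), and the 5 became 3 without any 1 of control arrays 1 and 4 or knockdown arrays 2, 3 and 4. Cth, which makes cysteine from cystathionine, read 10.34, 10.31, 10.31 and 10.17 in control and 11.26, 11.12, 11.19 and 11.12 in knockdown arrays (0.89 ± 0.05). Gpt2, a mitochondrial alanine transaminase, differed by 0.79 ± 0.04 and the glycine transporter Slc6a9 by 0.56 ± 0.03. Asparagine synthetase, Asns, a standard target of ATF4, was at 13.34 in control and 13.26 in knockdown cells. It was among the 5 genes that passed as lower.

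Promoters of these 2 lists were searched for the C/EBP-ATF element, the composite site bound by ATF4 with C/EBP partners, in the 250 bases before each RefSeq start (GRCm38.p6). The letters TGATGCAA on either strand were present in 20.6% of 34 promoters of 29 list genes, in 0.621% of all 19177 promoters of genes tested, in 1.01% of promoters of genes higher by 2-fold or more and in 0.407% of those lower by 2-fold or more. The cyclic AMP element TGACGTCA was in 2.94% of the list promoters, 2.02% of all, 1.01% of those higher and 2.85% of those lower. The letters CCAAT were in 44.1%, 34.5%, 30.3% and 33.7% and TATAAA in 11.8%, 10.5%, 10.4% and 8.54%, in the same order. A match is a description of the letters only. The stress list was made of effectors of ATF4 and CHOP, so its high share with the C/EBP-ATF element follows in part from that choice. That share does not bear on the line difference. Windows of 60 bases are shown for 4 genes with the element whose values differed between the lines, with the element in capitals as it reads on the gene's strand.
Nupr1, chr7:126625547-126625606, minus strand: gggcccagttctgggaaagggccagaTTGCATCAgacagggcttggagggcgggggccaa
Vldlr, chr19:27216794-27216853, plus strand: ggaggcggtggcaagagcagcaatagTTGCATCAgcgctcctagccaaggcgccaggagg
Chac1, chr2:119351023-119351082, plus strand: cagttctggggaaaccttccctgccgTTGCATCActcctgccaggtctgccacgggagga
Atf3, chr1:191183410-191183469, minus strand: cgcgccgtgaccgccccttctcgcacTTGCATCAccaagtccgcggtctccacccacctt
The first 3 of these genes were higher in knockdown cells and Atf3 was lower. Of the list genes with the element whose windows are not shown, Herpud1 (0.475) and Slc7a11 (0.51) were higher and Fgf21 (0.055) did not pass. Atf3 was thus the only 1 of the 7 list genes with these letters that passed as lower.

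Mitochondrial chaperones and proteases, the effectors of the mitochondrial unfolded protein response, differed by small amounts. The list was bright, with mean levels of 11.68 to 11.70 in control arrays. Of the brighter genes 34.6% were higher and 28.3% lower. Of the 17 list genes tested, 4 were higher (23.5%, and 21.5% of all genes) and 5 lower (29.4%, and 17.9% of all genes), all by less than 0.5. The median was -0.005, and the 5 became 3 without any 1 of control arrays 1, 2 and 3 or knockdown arrays 2 and 4. With median centring 3 were higher and 8 lower (median -0.07). Lonp1, the matrix protease, read 10.90, 10.81, 10.76 and 10.81 in control and 11.02, 11.04, 11.09 and 11.09 in knockdown arrays (0.24 ± 0.04). Clpp, the other matrix protease, was lower by 0.21 on the log2 scale, and the chaperone gene Hspa9 was at 13.20 in both lines. Of 15 BCL2 family genes 2 were higher (1 without the 3 arrays of the gradient) and 4 lower (median 0.025). A second quantile normalization gave 1 higher and 5 lower (median -0.06) and median centring 1 and 6 (median -0.04), so the sign of the median changed. Bcl2, the survival factor often described as an Atf5 target, read 11.16, 11.12, 11.07 and 11.14 against 10.54, 10.51, 10.63 and 10.60 (-0.55 ± 0.04), while Mcl1 was at 12.03 and 12.06.

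Cytosolic heat shock chaperones were lower in 7 and higher in 3 of 17 (5 without moderation of the variances). Hspa1a, the inducible HSP70, read 8.99, 9.14, 9.09 and 9.02 in control and 8.12, 8.17, 8.10 and 8.07 in knockdown arrays (-0.94 ± 0.06). Hspa4l, of the HSP110 group, was 2.37-fold higher and the small heat shock protein Hspb8 2.22-fold. The main constitutive chaperone Hspa8 did not pass, with means of 13.95 and 13.94.

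Chemokines and cytokines were higher in 14 and lower in 1 of 24 (median 0.36), 9 of them by 2-fold or more. Ccl2, which attracts monocytes, read 9.14, 9.36, 9.38 and 9.23 in control and 12.51, 12.43, 12.43 and 12.45 in knockdown arrays (3.18 ± 0.05). The related chemokine Ccl7 differed by 2.76 ± 0.10, the lymphocyte growth factor Il7 by 2.31 ± 0.09, Cxcl5 by 2.17 ± 0.06 and Ccl5 by 1.72 ± 0.05. Of 12 leukocyte markers Cd14 (0.79 ± 0.07) and Cd68 (0.12) passed, the mean level of the list lay between 6.59 and 6.68 in control and 6.64 and 6.81 in knockdown arrays, and Ptprc, Adgre1 and Itgam were at 6.31 or below.

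Interferon-stimulated genes were higher in 11 and lower in 1 of 20 (median 0.53), and the 1 became 2 with median centring, a second quantile normalization, array weights or only the 8 vehicle arrays. Ddx58, the RNA sensor RIG-I, read 9.11, 9.21, 9.29 and 9.16 in control and 10.70, 10.80, 10.81 and 10.91 in knockdown arrays (1.61 ± 0.05). Ifit1 (1.61 ± 0.09) and Bst2 (0.83 ± 0.04) were higher too, whereas Mx1, at 4.88 and 4.89, was low in both lines. Antigen presentation by MHC class I was higher in 11 and lower in 0 of 16 (median 0.34), led by H2-Q4 (2.42 ± 0.09) and the peptide loading proteins Tapbp (1.23 ± 0.05) and Tap1 (0.75 ± 0.06). Of the 24 genes listed, H2-K1, H2-D1, H2-L, H2-Q1, H2-Q6, H2-Q7, H2-Q8 and H2-T23 were not tested, so the count does not cover them. Genes of the H2 family share sequence, so H2-Q4 may carry signal of its relatives. Of Nlrc5, the transactivator of these genes, some probe sets passed as higher and the one used did not.

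Targets of NRF2 and glutathione enzymes were higher in 14 and lower in 3 of 25 (median 0.22), and the 3 became 5 with a second quantile normalization and 1 without the 3 arrays. Nqo1, a quinone reductase and the standard NRF2 target, read 8.08, 8.34, 8.23 and 8.16 in control and 11.55, 11.60, 11.59 and 11.54 in knockdown arrays (3.37 ± 0.05). Gsta4 (2.78 ± 0.11) and Blvrb (1.05 ± 0.04) were higher as well. Other classical targets moved less, with Hmox1 at 0.27 and Txnrd1 at 12.02 against 11.99, which did not pass.

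**Figure D3:**
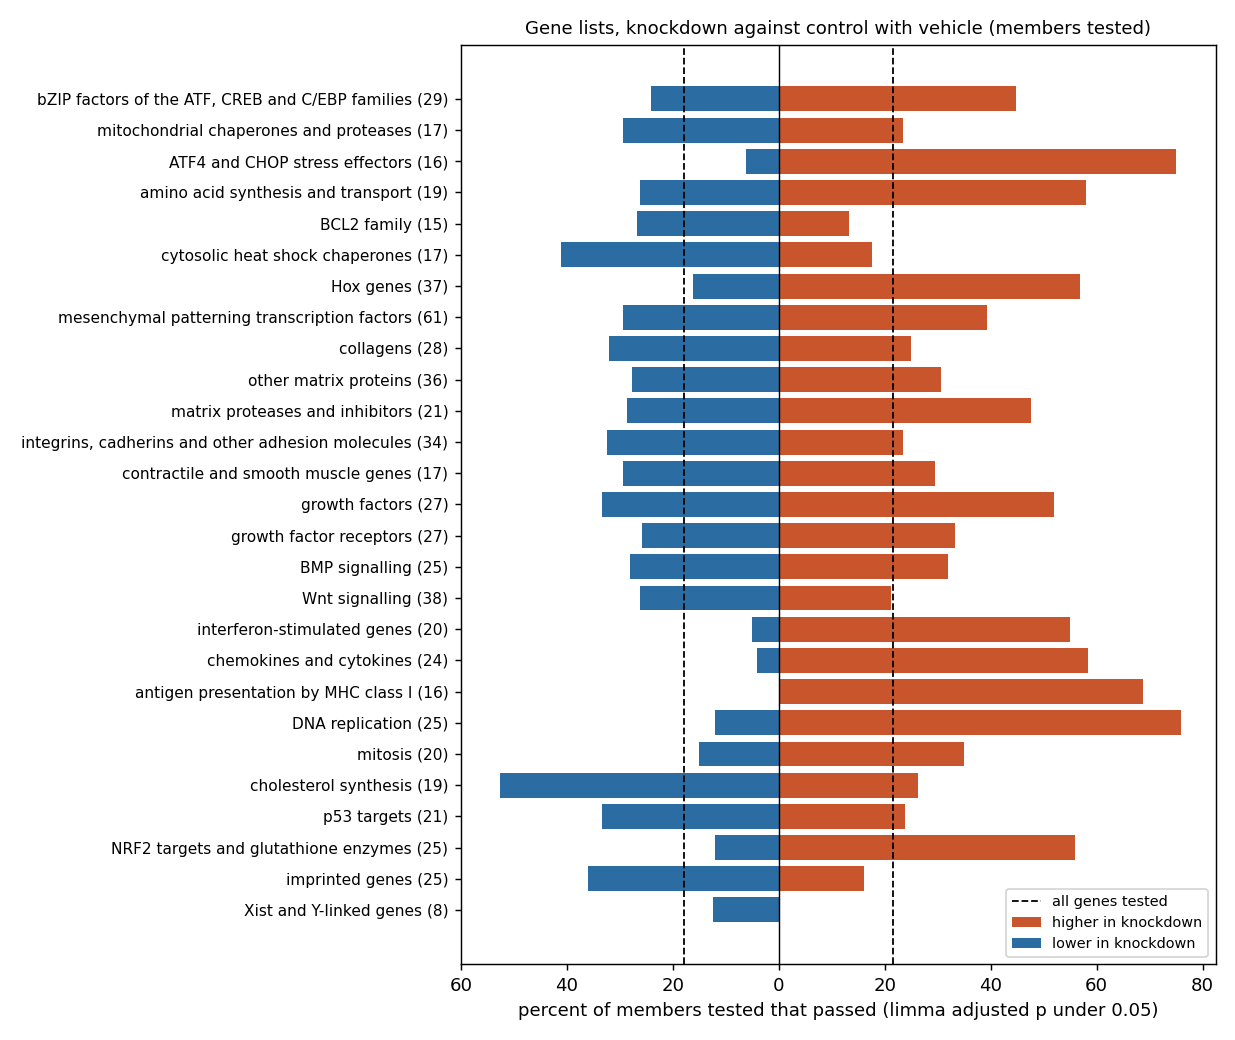
Percent of the tested members of each of the 27 pathway lists that passed as higher (right) or lower (left) in knockdown cells, with the number tested in brackets and dashed lines for all genes (21.5% higher, 17.9% lower). The bars of stress effectors, chemokines, MHC class I and DNA replication reach far to the right, and that of cholesterol synthesis to the left.

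Genes of DNA replication were higher in 19 and lower in 3 of 25, with small differences (median 0.23). Ccne1, cyclin E, read 11.28, 11.24, 11.27 and 11.23 in control and 11.76, 11.72, 11.77 and 11.86 in knockdown arrays (0.52 ± 0.04), and the licensing factor Cdt1 differed by 0.54 ± 0.04. Mitosis genes were higher in 7 (35%) and lower in 3 (15%) of 20, beside 34.6% and 28.3% of the brighter genes. This list was bright, with mean levels of 12.08 to 12.11 in control arrays. Its median was 0.04, and -0.02 with median centring. With MG132 the median was -0.07, and only 2 of the 7 higher genes also passed as higher. Cenpf was higher by 0.46 ± 0.05 with vehicle. Cholesterol synthesis was lower in 10 and higher in 5 of 19 (median -0.15). The 5 became 3 with median centring, while without the 3 arrays of the gradient 6 were higher and 7 lower. Of the 10 lower genes only 2 also passed as lower with MG132, where the median of the list was 0.06. Insig1, the sterol-regulated brake of the pathway, read 11.42, 11.44, 11.48 and 11.53 against 10.76, 10.76, 10.70 and 10.96. Among p53 targets, with mean levels of 9.93 to 9.96 in control arrays, 5 of 21 were higher (23.8%) and 7 lower (33.3%). The shares were 21.5% and 17.9% of all genes, and 34.6% and 28.3% of the brighter genes. The receptors Eda2r (1.31 ± 0.09) and Fas (1.09 ± 0.05) were at the top of the p53 list.

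Matrix genes went both ways. Of 28 collagens 7 were higher (25%) and 9 lower (32.1%), beside 21.5% and 17.9% of all genes. The paired basement membrane chains Col4a1 (1.40 ± 0.04) and Col4a2 (1.28 ± 0.05) were higher, and Col6a3 (-1.14 ± 0.03) was lower. Tnc, tenascin C, read 11.72, 11.65, 11.78 and 11.67 in control and 9.40, 9.47, 9.42 and 9.44 in knockdown arrays (-2.27 ± 0.05), and Nid1 (1.32 ± 0.03) was higher, within a list of 36 other matrix proteins with 11 higher and 10 lower. Matrix proteases and inhibitors were higher in 10 and lower in 6 of 21 (median 0.02, and -0.04 with median centring), with Mmp19 at 0.97 ± 0.06, Mmp2 at -0.81 ± 0.04 and Adamts1 at -0.94 ± 0.05. Of 34 adhesion molecules 8 were higher (23.5%) and 11 lower (32.4%), a count of lower that median centring raised to 20. Cdh3, P-cadherin, differed by -1.67 ± 0.04. Contractile genes were higher in 5 and lower in 5 of 17, and the lower count was 3 without any 1 of control array 1 or knockdown arrays 2 and 4, and 8 with median centring. Without the 3 arrays of the gradient both counts were 3. Tagln, the actin-binding protein SM22, read 12.48, 12.21, 12.32 and 12.23 against 10.39, 10.26, 10.18 and 10.15, while Myl9 was higher by 0.99 ± 0.05.

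Growth factors were higher in 14 and lower in 9 of 27. Besides Gas6, Kitl, the ligand of the receptor Kit, was higher (1.74 ± 0.04), and Pdgfc (-1.31 ± 0.04) was lower. Their receptors were higher in 9 and lower in 7 of 27, the latter 12 with median centring. Mertk, one of the receptors of Gas6, read 9.05, 9.20, 9.21 and 9.07 in control and 7.79, 7.95, 8.01 and 8.03 in knockdown arrays (-1.19 ± 0.07), opposite in direction to its ligand. Mertk had the lowest difference of the receptor list and was picked after its value was seen. Its value does not speak for the Gas6 receptors Axl and Tyro3. Fgfr2 was at 1.22 ± 0.05, Flt1 at -1.08 ± 0.04 and Egfr at -1.01 ± 0.05. In BMP signalling 8 of 25 were higher and 7 lower, led by the secreted inhibitors Fst (2.21 ± 0.08) and Grem1 (1.58 ± 0.06). In Wnt signalling 8 of 38 were higher (21.1%, and 21.5% of all genes) and 10 lower (26.3%, and 17.9% of all genes). Median centring raised the lower count to 19. Lrp5 was at 1.69 ± 0.05, Fzd6 at -1.40 ± 0.04 and Wnt7b at -1.39 ± 0.04.

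Imprinted genes, expressed from 1 parental copy, were lower in 9 and higher in 4 of 25. The lower count was 16 with median centring and 14 without knockdown array 1. Peg3 read 10.45, 10.55, 10.43 and 10.53 in control and 7.02, 6.88, 6.79 and 6.54 in knockdown arrays. Grb10, an adaptor that restrains insulin signalling, read 12.52, 12.55, 12.54 and 12.56 against 9.76, 9.55, 9.67 and 9.80. Slc38a4, an amino acid transporter, went the other way, from 9.00, 9.03, 9.03 and 8.97 to 12.19, 12.17, 12.20 and 12.23 (3.19 ± 0.04). Of Xist and the Y-linked genes, 1 of 8 passed, as lower, 4 with median centring and 2 with only the 8 vehicle arrays. Xist was at 12.74 in control and 12.52 in knockdown cells, bright in both, and the Y-linked genes other than Sry were between 3.95 and 5.92.

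The fibroblast label was checked against markers. Vim (14.21 and 14.15), Fn1 (13.79 and 13.41), Col1a2 (12.18 and 11.79) and Pdgfrb (10.68 and 10.76) were bright in control and knockdown cells, while Lum (4.72 and 4.69) and Fap (5.08 and 5.03) were low in both. Of 12 fibroblast markers 4 were higher, led by Thy1 (0.86 ± 0.05), and 3 lower. Endothelial markers passed in 1 gene higher, Eng (8.33% of 12), and 2 lower, Flt1 and Cdh5 (16.7%). These shares were under those of all genes (21.5% and 17.9%), and Pecam1 and Kdr were under 7 in both lines. The endothelial list was dim (7.34 to 7.40 in control arrays), and dim genes passed less often than brighter ones. Krt19 was the 1 of 12 epithelial markers that passed, and it fell by 2.44 on the log2 scale, with Epcam at 6.70 and 6.53. Mesothelial markers were lower in 5 of 9, Krt19 and Msln (-0.32) among them, and the mean of that list was 7.93 to 8.03 in control and 7.51 to 7.60 in knockdown arrays. In the other 6 marker lists, skeletal muscle, smooth muscle and pericyte, adipocyte, chondrocyte and osteoblast, neuron and neural crest, and pluripotent cell, at most 4 members passed, among them Tagln, Pparg (-1.51 ± 0.08), Sox9 (-1.27 ± 0.05), Map2 (1.22 ± 0.06) and Sox2 (-0.94 ± 0.05). Median centring raised several of these counts of lower markers, that of endothelium from 2 to 8. Without knockdown array 1, 4 endothelial and 3 epithelial markers were lower. The 2 leukocyte markers that were higher became 1 without any 1 of control array 2 or knockdown arrays 1 and 3, and 1 higher and 3 lower with median centring. The share of other cell types in the differences above was not tested, and in bulk RNA fewer cells of a type and less RNA per cell cannot be told apart.

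The line difference was measured again on the MG132 plates, which share no array with the vehicle plates. There 7588 genes passed, 38.1% of those tested, with 3536 higher (17.7%) and 4052 lower (20.3%). Of the genes that passed with vehicle, 5494 did so in the same direction with MG132, which is 70.0% of the vehicle calls and 72.4% of the MG132 calls, and 195 passed in the opposite direction. All 390 genes higher by 2-fold or more passed in the same direction, and 229 of the 231 lower ones did. The remaining 2 were Adm, which did not pass with MG132, and Edn1. Over all genes the differences on the plates with and without MG132 correlated at r = 0.901, as a description over genes that are not independent.

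**Figure D4:**
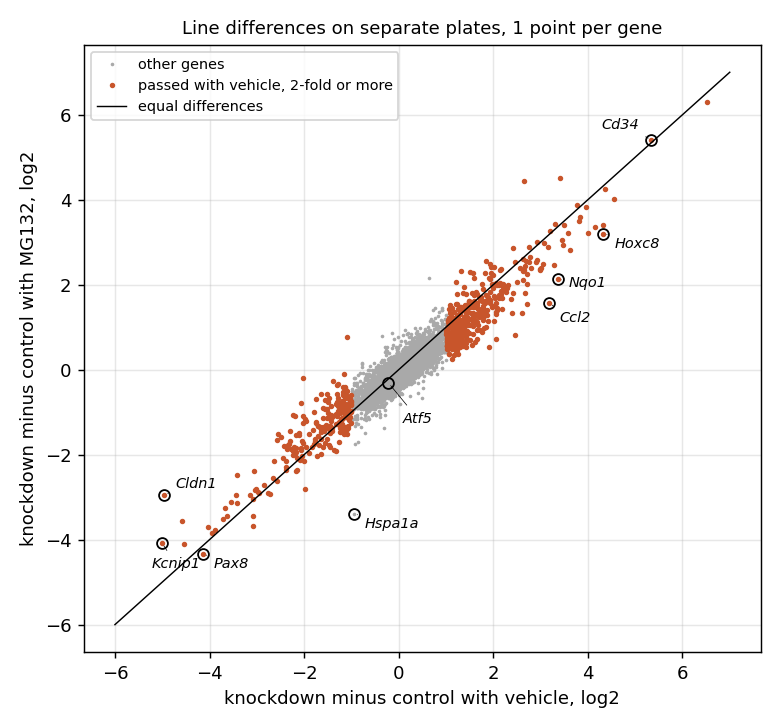
Knockdown minus control on the vehicle plates (horizontal) and on the MG132 plates (vertical), log2, 1 point per gene, with the line of equal differences and genes at 2-fold or more with vehicle in orange. Points lie along the line, while Hspa1a, Cldn1, Ccl2 and Nqo1 stand off it.

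Large differences tended to be smaller with MG132. Of the 390 higher genes 313 (80.3%) had a smaller difference there, with medians of 1.42 with vehicle and 1.22 with MG132, and of the 231 lower genes 181 (78.4%) did, with medians of -1.49 and -1.33. These genes were chosen by their vehicle values. The difference of the line differences itself passed in 2903 genes, 14.6% of those tested, 222 of the 390 and 111 of the 231. Cd34 kept its size (5.42 with MG132), and Pax8 too (-4.33).

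Differences were not spread evenly over chromosomes. Among the 9969 brighter genes 34.6% were higher and 28.3% lower, with a median of 0.015. On chromosome 15, 65.1% of 401 such genes were higher and the median was 0.21, and on chromosome 3, 64.3% of 490 were higher with a median of 0.18. Chromosomes 8 (56.2% higher) and 19 (51.4%) followed. On chromosome 12, 59.3% of 339 were lower with a median of -0.16, and on chromosome 18, 131 of 247 were lower with a median of -0.13. Every knockdown array had its chromosome 15 median between 0.20 and 0.23 above the control mean, and its chromosome 12 median between -0.19 and -0.14. The MG132 plates gave medians of 0.16 on chromosome 15 and -0.19 on chromosome 12. The cause of these shifts was not tested. The HoxC genes lie on chromosome 15, and their differences of 1.17 to 4.33 are far larger than its median.

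**Figure D5:**
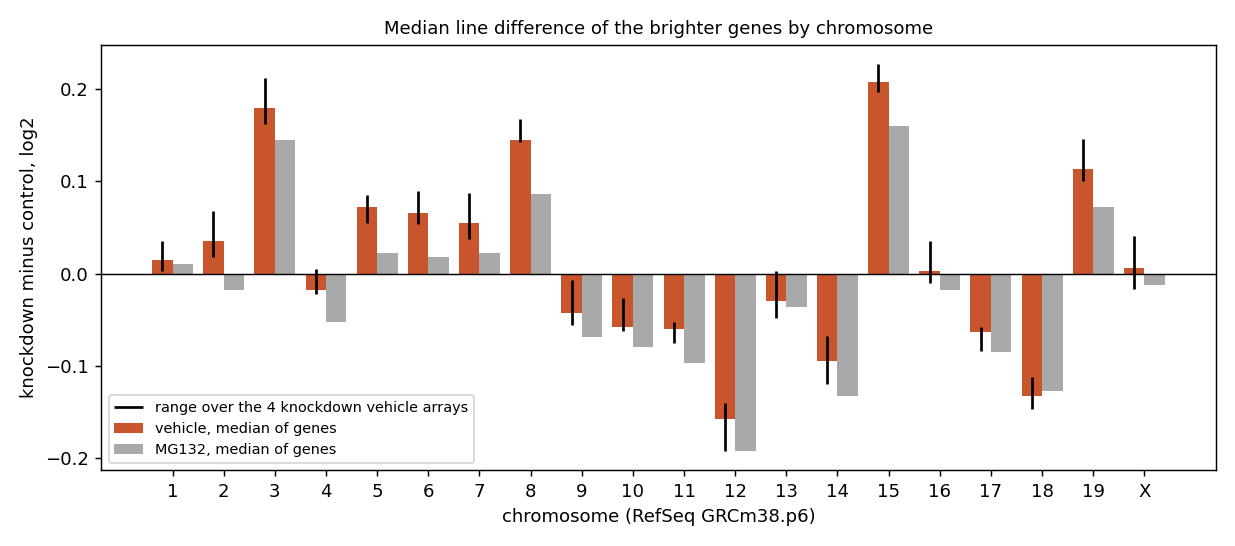
Median knockdown minus control difference of the brighter genes by chromosome, log2, with vehicle (orange) and MG132 (grey), and black bars for the range of the medians of the 4 knockdown vehicle arrays against the control mean. Chromosomes 15, 3, 8 and 19 stand above 0 and chromosomes 12, 18 and 14 below 0 with both treatments.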

How the data were processed

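Total RNA of 16 plates was hybridised to Affymetrix whole-transcript arrays. The authors deposited log2 probe set values. The submitters' processing notes name RMA and Partek, with no version or setting. RMA equalises arrays, which would hide a change of most genes in 1 direction. No detection calls were used. Of 35556 probe sets, 21789 carried exactly 1 gene symbol in the platform annotation, and 21698 of these matched RefSeq (GRCm38.p6) by gene ID. Several probe sets represented 999 genes, and the brightest on average over the 16 arrays was kept, which left 19938 genes.

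With limma 3.58.1 (R 4.3.3) a mean per group was fitted to all 16 arrays (12 residual and 4.12 prior degrees of freedom, two-sided, threshold 0.05), after the fit was tested on simulated data. Named genes are Atf5, the 15 highest and 15 lowest that passed without overlap (gene models, clones and small RNAs skipped), up to 3 members with the smallest p of each of 27 pathway lists and 1 of each of 11 cell type lists. Others in the text were chosen after their values were seen. Members and lists were chosen with earlier results of these data known. Alternatives were normalization (quantile again or median centring), dropping dim genes (below the 25th percentile or a mean of 6), using all probe sets or their mean, only the 8 vehicle arrays, array weights, a trended robust prior or no moderation, a block for the replicate number, and leaving out arrays. Figures were drawn in Python 3.11.15 (matplotlib 3.10.9).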

Additional observations from a re-analysis of the deposited data

Results flagged for a closer look

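Single arrays were flagged in 7 of the 109 named genes, by a test of the gap between an extreme value and its neighbour. Chance passes it in about 1 in 20 groups. Both the control and the knockdown vehicle group of every named gene were tested, so this many flags can arise by chance alone. Cldn1 was highest on knockdown array 1 (6.34, the others 6.09 to 6.13), and Hoxc9 was lowest on the same array (10.13 against 10.37 to 10.39). Pax8 was lowest (11.63) and Smtn, a smooth muscle protein, highest (11.40) on control array 1, which lies with knockdown array 1 toward one end of the gradient inside the lines. Col4a2 was lowest on control array 3 (8.65), Sulf1 on knockdown array 3 (7.08) and Tfpi on knockdown array 2 (10.03). These gaps are small beside the line differences of the same genes.

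The line difference itself differed between the MG132 and vehicle plates in 61 of the 109 named genes (limma, adjusted p from 7.55e-12 to 0.0354). Over all genes tested the share was 14.6%. Apart from Atf5 the named genes were chosen by their vehicle values, so shifts toward 0 follow in part from the choice. The values are the difference with MG132 minus that with vehicle. Among genes higher in knockdown cells with vehicle it was nearer 0 or reversed with MG132 in 33. The largest shifts were those of Ccl2 (-1.62), Nqo1 (-1.25), Hoxc8 (-1.12), Psca (-0.91), Hoxc6 (-0.81), Gas6 (-0.79), Il13ra1 (-0.79) and Grem1 (-0.74). Shifts of middle size were those of Nupr1 (-0.65), H2-Q4 (-0.62), Ddit3 (-0.57), Tapbp (-0.55), Vcam1 (-0.54), Efemp1 (-0.53), Gpt2 (-0.51), Ifit1 (-0.48), Map2 (-0.47), Ddx58 (-0.45), Lrp5 (-0.45) and Hspa4l (-0.43). The smallest were those of Id2 (-0.42), Ccl5 (-0.41), Blvrb (-0.38), Creb3l1 (-0.37), Cenpf (-0.37), Hoxc9 (-0.33), Ccne1 (-0.33), Hspb8 (-0.32), Tfpi (-0.30), Cdt1 (-0.29), Cdc45 (-0.25), Slc6a9 (-0.22) and Cenpa (-0.18).

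Among genes lower with vehicle the shift was toward or past 0 in 23. It was largest for Cldn1 (2.01), Wnt7b (1.13), Nrn1 (1.02), Hoxd8 (0.95), Pdgfc (0.95), Kcnip1 (0.93), Adamts1 (0.75), Insig1 (0.49) and Sulf1 (0.49). It was smaller for Sox9 (0.48), Lrp2 (0.44), Sim2 (0.42), Peg3 (0.42), Tnc (0.41), Krt19 (0.36), Bcl2l1 (0.35), Sox2 (0.34), Ctsh (0.33), Cdh3 (0.31), Chrna1 (0.29), Gata6 (0.28), Egfr (0.25) and Col6a3 (0.20).

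The difference was larger in size with MG132 in 5 genes, Hspa1a (-2.44), Nid1 (0.15), Myl9 (0.29), Fas (0.42) and Eda2r (1.02). For Hspa1a it went from -0.94 to -3.39.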

How the results depend on the processing

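The number of arrays limits precision, and dim probe sets compress differences. The 108 named genes other than Atf5 kept their direction and passed under each of up to 20 alternatives. They were chosen by their values on these same arrays, so this outcome was largely built in. With median centring 5826 genes were lower. Atf5 was at -0.125 (limma adjusted p = 0.157) without the 3 arrays of the gradient, and passed under the other alternatives, where its adjusted p ranged from 7.00e-05 to 0.0145 and its difference from -0.29 to -0.18. Leaving out 1 array at a time gave 7303 to 7973 genes changed, 3990 to 4194 higher, 3200 to 3779 lower, 369 to 408 higher and 226 to 231 lower by 2-fold or more, 5213 to 5398 shared with MG132, 2325 to 3119 depending on MG132, and -0.25 to -0.18 for Atf5. Of the counts of list members, 74 of 1520 moved by over 1.5 times. Cause was not tested.

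Whether the replicate numbers pair the plates was not settled. Same-numbered arrays deviated together at r = 0.396, 0.132, 0.157 and -0.221, and different-numbered ones at -0.364 to 0.318. With the number as a block 7766 genes changed, and Atf5 stayed at -0.22.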

Other observations

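Some genes differed between the lines in opposite directions with and without MG132. They were picked after their values were seen. Edn1, which encodes the vasoconstrictor endothelin 1, read 10.22, 10.21, 10.34 and 10.24 in control and 9.13, 9.17, 9.14 and 9.16 in knockdown arrays with vehicle (-1.10 ± 0.04), and with MG132 it differed by 0.77 ± 0.04 (limma adjusted p of the change in difference 7.55e-12). Slc7a11, the cystine transporter, was higher by 0.51 ± 0.04 with vehicle and stood at -0.43 ± 0.04 with MG132. Inhba, a subunit of activin, was at -0.35 ± 0.03 and 0.23 ± 0.03. Rsad2, an antiviral enzyme, was higher in both but by 0.64 ± 0.08 with vehicle and 2.16 ± 0.08 with MG132.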
